A study of Mus musculus with 2 samples.

Results

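The endoplasmic reticulum (ER) quality control genes were read in RNA sequencing of mouse Th1 cells, the CD4 T helper cells that make IFNγ. The set is 35 symbols chosen for their known function: ER chaperones, disulfide isomerases, sensors of the unfolded protein response, ER-associated degradation factors and translocon subunits. Of these, 33 were found by symbol among the 24421 genes of the deposited tables. The remaining genes, Hm13 and Sels, were found under the RefSeq symbols H13 and Vimp and are described separately, outside every count. Naïve CD4 T cells from C57BL/6J mice, aged 6 to 8 weeks per the study's methods, were activated with plate-bound antibodies to CD3 and CD28 and skewed in culture with IL-12, IL-2 and an antibody to IL-4. The WT sample has the genotype Chi3l1+/+ and the knockout (KO) sample Chi3l1-/-, a germline deletion of chitinase 3-like 1 in all cells of the mouse. Whether cells of several mice were pooled is not given in the sources used here. There was 1 sample of each genotype, so no difference between them has a replicate check and no test was possible.

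Proteins bound for the secretory pathway enter the ER through the Sec61 channel, lose their signal peptide and fold with the help of chaperones and disulfide isomerases. Proteins that fail to fold are pulled back to the cytosol and degraded. When unfolded proteins build up, the membrane sensors IRE1, PERK and ATF6 slow translation and switch on genes for chaperones and degradation factors, a program known as the unfolded protein response. T cells that are activated to secrete cytokines are known to use this program.

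The values are log2 of a normalized read count plus 1. Normalized counts summed to 68448996 in the library labelled WT and 60913079 in the library labelled KO. Read numbers were rebuilt from the even steps of the low values, and a gene with 3 reads has a value of 1.96 in either library. The targeted gene, listed as Chil1, had 1 read in the library labelled WT and 103 reads in the library labelled KO. This is opposite to the labels, and values per gene do not show which exons the reads come from. All directions below therefore follow the labels only. T cell genes were high in both libraries, with the 9 genes of the T cell list between 11.91 and 16.49, of which 7 were lower and 2 higher in the library labelled KO. The 6 Th1 genes lay between 6.82 and 14.35 and went both ways, with 4 higher and 2 lower. Ifng, which encodes IFNγ, differed by 1.32 on the log2 scale, and Tbx21 and Cxcr3 by -0.27 and -1.23. The CD8 genes Cd8a and Cd8b1 differed by 0.60 and -0.47. All 7 B cell genes were higher in the library labelled KO, where their summed normalized count was 3752 against 1853, a log2 difference of 1.02. Of the 6 plasma cell genes found, Tnfrsf17 was at 0 in both libraries, Jchain at 0 and 1.53, Mzb1 at 3.96 and 3.95 and Sdc1 at 6.91 and 6.79. The other two, Irf4 at 14.88 and 15.11 and Prdm1 at 8.49 and 9.30, are also expressed by T cells. The 5 neutrophil and 5 erythroid genes were all at 0 in the library labelled KO and at most 4.54 in the library labelled WT. The monocyte and macrophage list was lower in sum in the library labelled KO (log2 difference -0.25), with 4 genes lower, 2 higher and 1 equal. The dendritic cell list was higher in sum (0.33), with 2 genes higher, 1 lower and 2 equal. The part of these cells in the differences below was not tested, and in bulk samples fewer cells of a type and less RNA per cell cannot be told apart.

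Most ER quality control genes were slightly higher in the library labelled KO. Of the 33 genes, 29 were higher and 4 (Syvn1, Sec61a1, Sec61b and Ssr2) were lower, with a median log2 difference of 0.29. With a value of at least 8 asked of both libraries, 31 genes remained, 27 of them higher and 4 lower, against 48.8% higher and 51.2% lower among all 8886 genes at that level, whose median was -0.01. The same 27 and 4 were counted when the libraries were scaled to Actb or to equal totals without the ribosomal RNA row Rn45s, while 61.6% and 64.1% of all genes at that level were then higher. Without the floor 31.7% of all genes were higher and 34.4% lower, since many are at 0 in both libraries. The sizes were small. Only Calr4 passed 2-fold, where 4.7% of all genes were at least 2-fold higher and 5.81% at least 2-fold lower. None of the 31 genes at 8 or more in both libraries did, where 0.461% of all genes at that level were higher and 0.743% lower by that much. At 1.5-fold, Calr4, Sdf2l1, Pdia6 and Creld2 were past the line upward (9.6% of all genes) and no member downward (11.4%). Of the 31 genes at 8 or more in both libraries, 3 were at least 1.5-fold higher against 3.95% of all genes at that level, and 0 lower against 6.29%. Above the upper quartile of those 8886 genes, a log2 difference of 0.22 that 25% of them passed, were 17 of the 31 members, and below the lower quartile, -0.25, were 0.

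**Figure D1:**
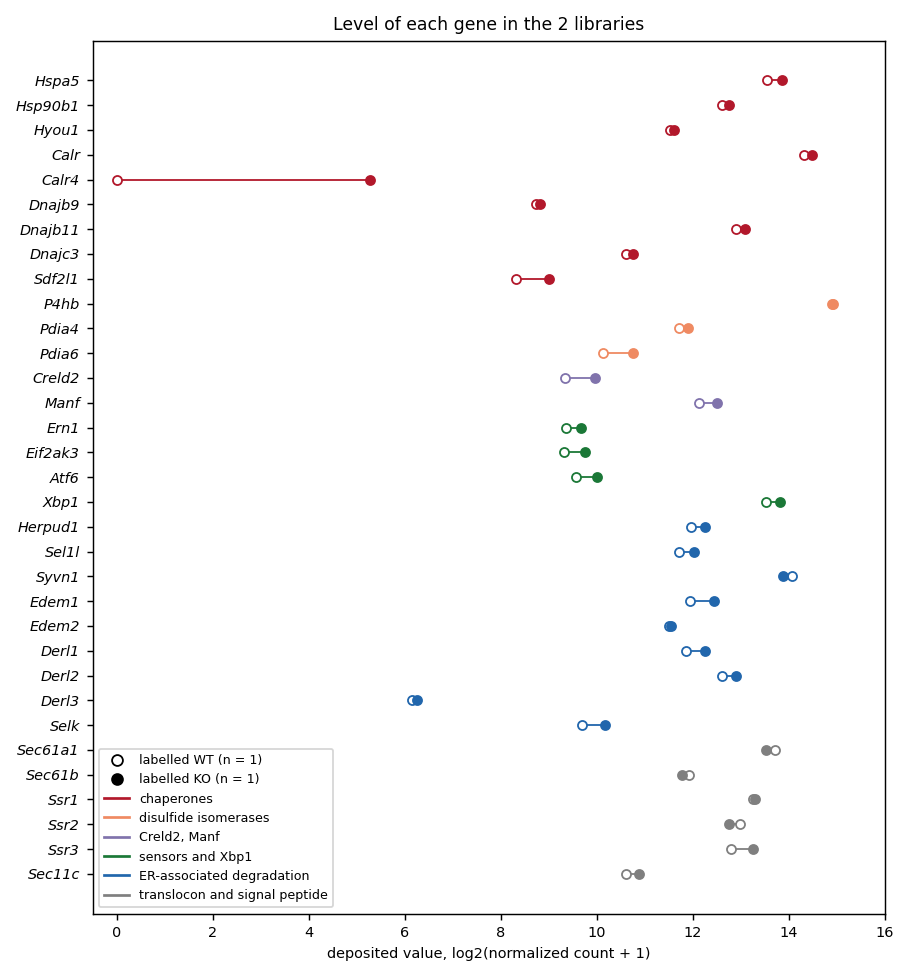
Deposited value, log2(normalized count + 1), of each of the 33 genes in the library labelled WT (open circle) and in the library labelled KO (filled circle), coloured by role (n = 1 each). Calr4 was at 0 and 5.28, and the other pairs of circles lie close together.

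An exact binomial (Clopper-Pearson) 95% interval of each ratio was computed from the rebuilt reads. It covers counting error only, not the spread between mice or cultures and not the choice of scaling. The interval lay above 0 for 25 of the 31 well measured members (37.5% of all genes at that level), below 0 for 4 (41.1%), and held 0 for Dnajb9 and Edem2 (21.5% of all genes). Most genes at that level thus had an interval that left out 0, and this is not particular to the members. What moves genes beyond counting error between these 2 libraries was not tested.

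Log2 differences also moved with base composition. Across 8829 well measured genes with a transcript in GENCODE M21, the median went from 0.23 in the lowest of 20 bins of GC content to -0.45 in the highest. Across these 8829 genes Pearson's r with GC content was -0.49 and Spearman's rho -0.53. Across the 31 members Pearson's r was -0.23 and Spearman's rho -0.22. All are given as a description, since genes share the same 2 libraries. The members' transcripts had GC contents of 40.6% to 57.3%. With the trend removed, the median of the 33 members was 0.21, and 27 were higher. The median of the 31 well measured members was 0.18. Of the 31 well measured members 25 were then higher, against 49.9% of the 8829 genes, and 15 lay above the upper quartile and 0 below the lower. At 1.5-fold, Sdf2l1 and Creld2 were higher (2.82% of the 8829 genes) and no member was lower (3.23%). Hsp90b1, Dnajb9, Dnajc3 and Ssr1 then turned to lower, and Syvn1 and Sec61b to higher. The part of GC content in each difference was not tested further.

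**Figure D2:**
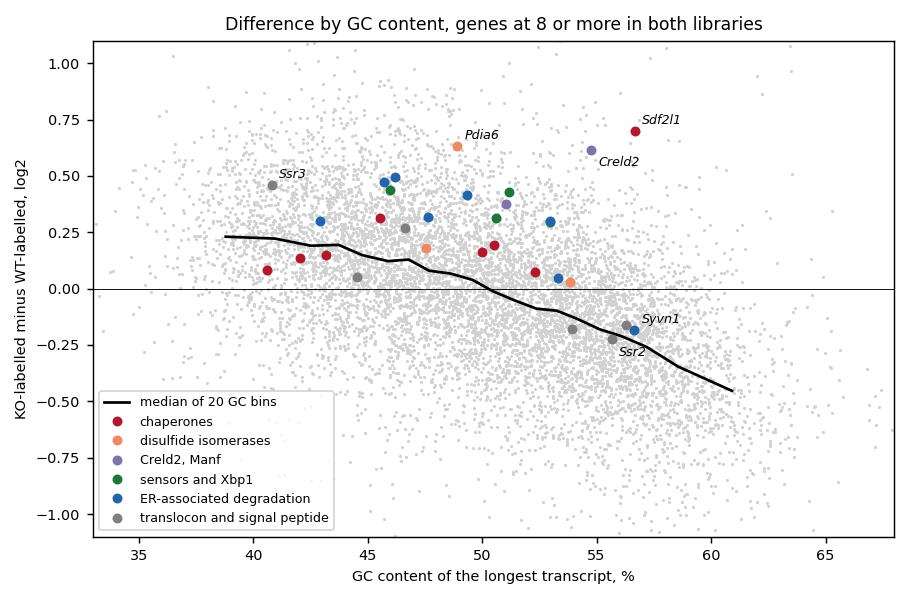
Log2 difference (library labelled KO minus library labelled WT) against the GC content of the longest transcript in percent, for genes at 8 or more in both libraries (grey), with the median of 20 GC bins (line) and the members coloured by role. The line falls from 0.23 to -0.45, Sdf2l1 and Creld2 lie far above it at high GC content, and Syvn1 and Ssr2 lie near it.

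The promoters of several members carry the letters to which the unfolded protein response is known to bind. The ER stress response element (ERSE) was searched as CCAAT, any 9 bases and CCACG, on both strands of the RefSeq window of 300 bases, from 250 before to 50 after each start site (GRCm38.p6). It was found in 37 of 27025 genes (0.137%), and 9 of the 26 members with a window were among them: Hspa5, Hsp90b1, Calr, Calr4, Dnajc3, Pdia6, Creld2, Syvn1 and Derl3. The shorter ERSE-II, searched on both strands as ATTGG, any 1 base and CCACG, was in 12 genes (0.0444%), among them Dnajb11 and Herpud1. Another element, which spliced XBP1 is known to bind, was searched as TGACG followed directly by TGG and was in 193 genes (0.714%) and in none of the 26 member windows. These are letter matches and not sites shown to be used. The members were chosen for their known function, so their share of matches is a description and not a test. The ERSE and ERSE-II matches are shown because 11 of the 26 members with a window hold one of them, with the fixed letters in capitals and each run given 5′ to 3′ on the gene's own strand. Where the element lies on the opposite strand, the capitals read as its reverse complement.
Hspa5, chr2:34772020-34772048, plus strand: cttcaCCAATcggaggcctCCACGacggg
Hsp90b1, chr10:86705618-86705676, minus strand: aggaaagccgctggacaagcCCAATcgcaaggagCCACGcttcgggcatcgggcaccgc
Hsp90b1, chr10:86705513-86705571, minus strand: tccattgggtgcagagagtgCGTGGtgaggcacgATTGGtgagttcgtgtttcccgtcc
Calr, chr8:84847055-84847113, minus strand: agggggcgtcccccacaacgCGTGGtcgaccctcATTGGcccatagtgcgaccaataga
Calr4, chr4:109218218-109218276, plus strand: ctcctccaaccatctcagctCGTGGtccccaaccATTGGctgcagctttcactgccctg
Dnajc3, chr14:118937807-118937865, plus strand: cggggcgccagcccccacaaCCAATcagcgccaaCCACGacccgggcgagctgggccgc
Pdia6, chr12:17266471-17266529, plus strand: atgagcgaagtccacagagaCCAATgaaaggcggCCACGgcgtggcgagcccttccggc
Creld2, chr15:88819500-88819558, plus strand: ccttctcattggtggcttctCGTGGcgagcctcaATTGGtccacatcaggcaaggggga
Syvn1, chr19:6046512-6046570, plus strand: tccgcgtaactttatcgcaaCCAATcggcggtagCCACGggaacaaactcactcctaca
Derl3, chr10:75893222-75893280, plus strand: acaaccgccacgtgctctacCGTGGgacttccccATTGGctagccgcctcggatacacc
Dnajb11, chr16:22857847-22857867, plus strand: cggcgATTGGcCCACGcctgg
Herpud1, chr8:94386357-94386407, plus strand: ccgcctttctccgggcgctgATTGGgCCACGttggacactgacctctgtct

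Members with and without the element are set side by side as a description, and its part in the differences was not tested. The 7 well measured members with an ERSE had a median log2 difference of 0.16, with 6 higher. The 17 well measured members with a window but no ERSE had a median of 0.30, with 16 higher. Dnajb11 and Herpud1, which hold an ERSE-II, are among these 17. Hyou1, Manf, Atf6, Derl1, Sec61a1, Ssr2 and Sec11c had no window. Sdf2l1, the well measured member with the largest difference, held no match to any of the 3 elements, while Syvn1, one of the 4 lower members, held the ERSE. Outside the set, 5 other well measured genes held an ERSE, named here after their values were seen: Canx, Alg12, Pan2 and Hnrnpa3 were higher, by 0.25, 0.37, 0.47 and 0.23 on the log2 scale, and Adcy3 differed by -0.43.

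Among the chaperones, all 9 genes were higher in the library labelled KO as deposited, 8 of them by less than 2-fold. With the GC trend removed, 6 of the 9 were higher. Hspa5, which encodes BiP, the ER chaperone that also holds the stress sensors inactive, lies on chromosome 2 from 34771970 to 34777547 (plus strand, GRCm38). It was at 13.54 in the library labelled WT and 13.85 in the library labelled KO, a log2 difference of 0.31 (counting interval 0.28 to 0.35) that is 24.2% higher. It holds the ERSE shown above at positions -65 to -47 from its RefSeq start site, which lies inside the GENCODE range of the gene, and its difference was above that of 83.1% of well measured genes. Hsp90b1, which encodes the ER member of the HSP90 family (GRP94), was at 12.60 and 12.74, a difference of 0.14. Of all its exon bases, 10.3% overlap a pseudogene on the other strand, and whether the counting used strand is not stated in the sources used here. Calr encodes calreticulin, which binds glycoproteins and calcium, and had the highest level per length of the chaperones, 9358 normalized counts per kilobase in the library labelled WT. Its values were 14.32 and 14.48, a difference of 0.16. These 3 chaperones were thus 10.0% to 24.2% higher as deposited. With the GC trend removed, the log2 differences were 0.18 for Hspa5, -0.06 for Hsp90b1 and 0.15 for Calr.

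The helpers of BiP split by size. Sdf2l1, a small ER protein that works with BiP and its J-domain partners, lies on chromosome 16 from 17130138 to 17132383 (minus strand) and was at 8.31 in the library labelled WT and 9.01 in the library labelled KO. Its log2 difference of 0.70 (counting interval 0.50 to 0.90), from 328 and 534 reads, was the largest of the 31 well measured members and above that of 97.9% of all well measured genes. Its transcript is GC-rich (56.7%), and with the GC trend removed the difference was 0.93. Dnajb11, an abundant J-domain co-chaperone of BiP, was at 12.89 and 13.08 (difference 0.19). Dnajc3, which encodes a J-domain protein that binds unfolded chains, was at 10.60 and 10.75 (0.15), and Hyou1, the ER chaperone that exchanges nucleotide on BiP, was at 11.52 and 11.60 (0.07). Dnajb9, a J-domain protein that restrains IRE1, was at 8.74 and 8.82, and its difference of 0.08 could not be told from 0 at this depth (counting interval -0.10 to 0.28). Sdf2l1 therefore stood well apart from the other helpers, whose differences were all under 0.20.

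Calr4, a calreticulin-like gene on chromosome 4 from 109234485 to 109254571 (plus strand), was the single member past 2-fold. It was listed at 0 in the library labelled WT and at 5.28 in the library labelled KO, from 0 and 39 reads. With 3 reads, a set allowance for a count of 0 and not a maximum, in place of 0, the ratio was 13-fold (log2 3.70). The lower end of its counting interval, which also covers the error of the 39 reads, was a log2 difference of 3.33. The longest run of bases shared by the longest transcripts of Calr and Calr4 is 17, shorter than a read. At 17.5 normalized counts per kilobase in the library labelled KO, against 10470 for Calr, it stayed the lowest member of the set in both libraries. Its ERSE match, shown above within 109218218 to 109218276, precedes the most upstream RefSeq start site. That start site lies well before the GENCODE gene start at 109234485, so the match is not next to the GENCODE gene.

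The disulfide isomerases form and reshuffle the bonds between cysteines. P4hb, which encodes the protein disulfide isomerase PDI, had the highest level per length of all members, 10598 normalized counts per kilobase in the library labelled WT and 10805 in the library labelled KO. Its values of 14.89 and 14.92 gave a difference of 0.03 (counting interval 0.01 to 0.05), among the smallest of the set. The difference was 0.14 when scaled to Actb, 0.17 with equal totals without Rn45s and 0.15 with the GC trend removed, all outside that interval. Pdia4 was at 11.71 and 11.89, a difference of 0.18. Pdia6, an isomerase that also acts on the sensors IRE1 and PERK, lies on chromosome 12 from 17266545 to 17284770 (plus strand) and was at 10.12 and 10.75. Its difference of 0.63 (counting interval 0.52 to 0.74), 54.9% higher, was above that of 96.9% of well measured genes, and it was 0.57 with the GC trend removed. The isomerase of lowest level per length thus had the largest difference of the 3.

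Creld2 and Manf encode ER proteins that are known to be induced and partly secreted under ER stress. Creld2, on chromosome 15 from 88819646 to 88826683 (plus strand), was at 9.34 in the library labelled WT and 9.96 in the library labelled KO, from 670 and 1029 reads. Its log2 difference was 0.62 (counting interval 0.47 to 0.76), and 0.78 with the GC trend removed. Manf was at 12.12 and 12.50, a difference of 0.38 (counting interval 0.32 to 0.43). Of the exon bases of Manf, 4.7% overlap an antisense gene and 4.1% overlap Dcaf1 on the other strand, and their reads may be mixed. Both differences were above the upper quartile of well measured genes.

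**Figure D3:**
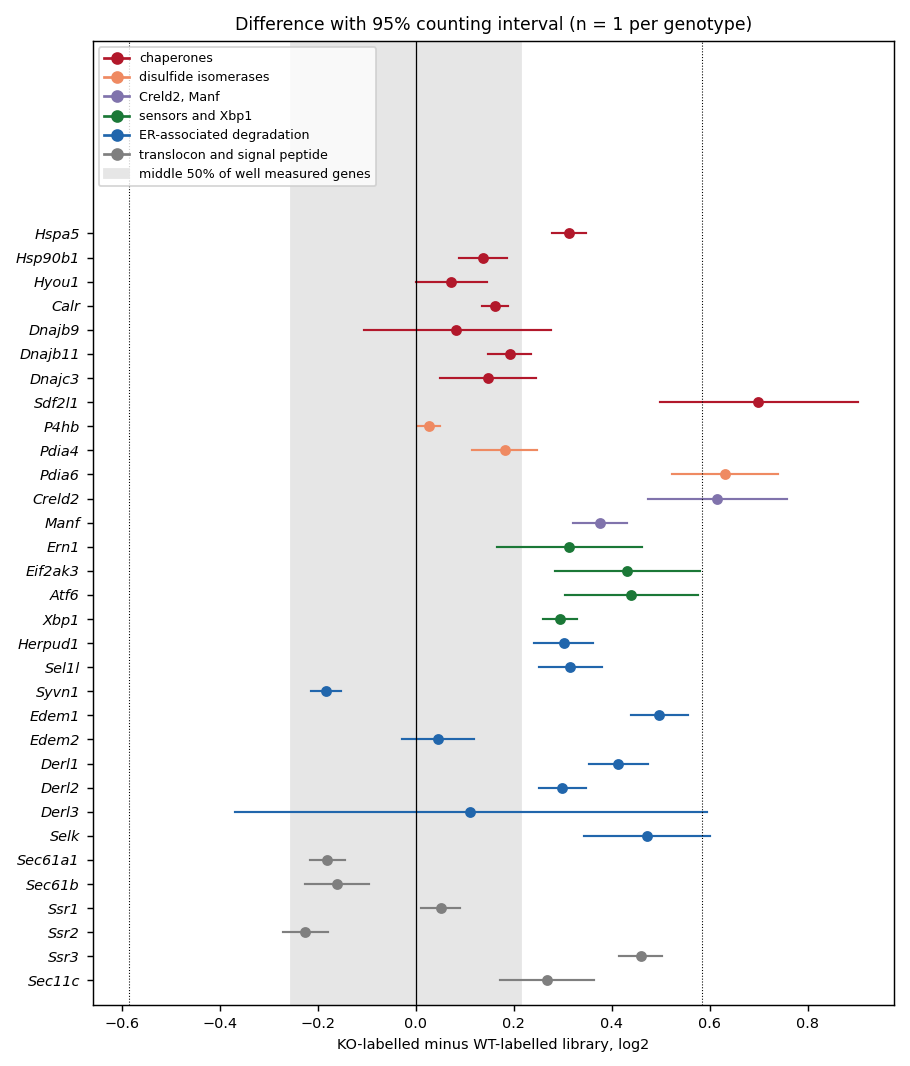
Log2 difference of 32 of the 33 genes (library labelled KO minus library labelled WT) with the 95% counting interval as a line, coloured by role (n = 1 per genotype). Calr4, at 5.28, is left out for scale, the grey band holds the middle 50% of all well measured genes (-0.25 to 0.22), dotted lines mark 1.5-fold, and Sdf2l1, Pdia6 and Creld2 lie past the upper one.

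The sensors and Xbp1 were all higher in the library labelled KO, with log2 differences between 0.29 and 0.44. Ern1, which encodes IRE1, the kinase and RNase that splices Xbp1 mRNA, was at 9.35 and 9.67 (difference 0.31, counting interval 0.17 to 0.46). Eif2ak3, which encodes PERK, the kinase that slows translation by phosphorylating eIF2α, was at 9.31 and 9.74 (0.43, counting interval 0.28 to 0.58). Of its exon bases, 8.0% overlap an unclassified transcript on the other strand. Atf6, the sensor that is cut in the Golgi to release a transcription factor, was at 9.56 and 10.00 (0.44, counting interval 0.31 to 0.58). The 3 sensors did not differ from each other beyond their counting intervals, which overlap. Xbp1, the transcription factor made active by IRE1, was far more abundant per length, at 5536 normalized counts per kilobase in the library labelled WT against 94.0 for Ern1, 104 for Atf6 and 141 for Eif2ak3. Its values of 13.53 and 13.82 gave a difference of 0.29 (counting interval 0.26 to 0.33). With the GC trend removed the 4 genes stayed higher, between 0.32 and 0.47. The values are sums over a gene, so spliced and unspliced Xbp1 mRNA, which show whether IRE1 is active, cannot be told apart.

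Of the 9 ER-associated degradation genes, 8 were higher and Syvn1 was lower. Edem1, a lectin that takes misfolded glycoproteins out of the folding cycle, lies on chromosome 6 from 108828641 to 108859356 (plus strand) and was at 11.93 and 12.43. Its difference of 0.50 (counting interval 0.44 to 0.56) was the largest of the group as deposited. With the GC trend removed it was 0.37, below 0.40 for Herpud1 and 0.38 for Derl3. Edem2, which trims mannose at an earlier step, was at 11.49 and 11.54, and its difference of 0.05 could not be told from 0 at this depth (counting interval -0.03 to 0.12). The derlins form part of the channel through which substrates leave. Derl1 was at 11.84 and 12.26 (0.41), Derl2 at 12.59 and 12.89 (0.30), and Derl3, best known from secretory cells, at 6.15 and 6.26 (0.11). From 72 and 78 reads, the counting interval of Derl3 ran from -0.37 to 0.59, so a difference as large as that of Derl1 was not detectable for it. Selk, a selenoprotein of the ER membrane that binds derlins, was at 9.69 and 10.17 (0.47).

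Within the complex that ubiquitinates ER substrates, the subunits went apart. Syvn1 encodes HRD1, the ubiquitin ligase of the complex, and lies on chromosome 19 from 6046576 to 6053712 (plus strand). It was at 14.06 in the library labelled WT and 13.88 in the library labelled KO, a log2 difference of -0.18 (counting interval -0.21 to -0.15). Sel1l, the adaptor that holds HRD1 in place, was at 11.71 and 12.02 (difference 0.32, counting interval 0.25 to 0.38), and Herpud1, which joins HRD1 to the derlins, was at 11.95 and 12.25 (0.30, counting interval 0.24 to 0.36). The counting intervals of Syvn1 and of its partners do not overlap. Syvn1 has a GC-rich transcript (56.6%), and with the GC trend removed its difference was 0.05, beside 0.23 for Sel1l and 0.40 for Herpud1. The difference of Syvn1 was -0.07 when scaled to Actb and -0.04 with equal totals without Rn45s, both outside its counting interval. Vimp, listed as Sels in the set and encoding another ER membrane selenoprotein of this pathway, was at 6.50 and 6.61, a difference of 0.12 from 92 and 100 reads that could not be told from 0.

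The translocon and signal peptide genes were the group without a common direction, with 3 higher, 3 lower and a median log2 difference of -0.05. Sec61a1 encodes the pore of the protein channel and was at 13.70 in the library labelled WT and 13.52 in the library labelled KO (difference -0.18). An antisense gene overlaps 8.2% of the exon bases of Sec61a1. Sec61b, a small subunit of the same channel, was at 11.92 and 11.76 (-0.16). Both intervals lay below 0, at -0.22 to -0.14 and -0.23 to -0.09. Scaled to Actb, the differences were -0.06 and -0.04. With equal totals without Rn45s they were -0.04 and -0.02, and with the GC trend removed -0.06 and 0.06. All of these lay outside the intervals. With quantiles set equal they were -0.06 and -0.13, of which only that of Sec61b stayed inside. The translocon-associated protein complex helps some chains to enter the channel, and its subunits differed among themselves. Ssr3 was at 12.79 and 13.25 (0.46), Ssr1 at 13.25 and 13.30 (0.05), and Ssr2 at 12.98 and 12.76 (-0.23). The gap of 0.68 between Ssr3 and Ssr2 was 0.26 with the GC trend removed, as their transcripts have GC contents of 40.8% and 55.7%. A processed pseudogene on the other strand overlaps 12.8% of the exon bases of Ssr2. Sec11c, a catalytic subunit of signal peptidase, was at 10.60 and 10.87 (0.27). H13, listed as Hm13 in the set and encoding signal peptide peptidase, was at 15.71 and 15.61, a difference of -0.10. Its direction turned under most other settings, to 0.11 with the GC trend removed, 0.07 with quantiles set equal, 0.02 when scaled to Actb and 0.04 with equal totals without Rn45s.

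Summed over genes, the normalized counts of the 33 members were 9.85% higher in the library labelled KO. Without the ribosomal RNA row Rn45s, they made up 0.287% of all normalized counts in the library labelled WT and 0.347% in the library labelled KO. By role the summed counts were 14.8% higher for chaperones, 4.76% for disulfide isomerases, 32.8% for Creld2 and Manf, 24.0% for sensors and Xbp1, 10.4% for ER-associated degradation and 0.396% for the translocon group. Members of high level weigh most in these sums. The order of levels per length, with P4hb and Calr on top and Derl3 and Calr4 at the bottom, was led and closed by the same genes in both libraries.

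**Figure D4:**
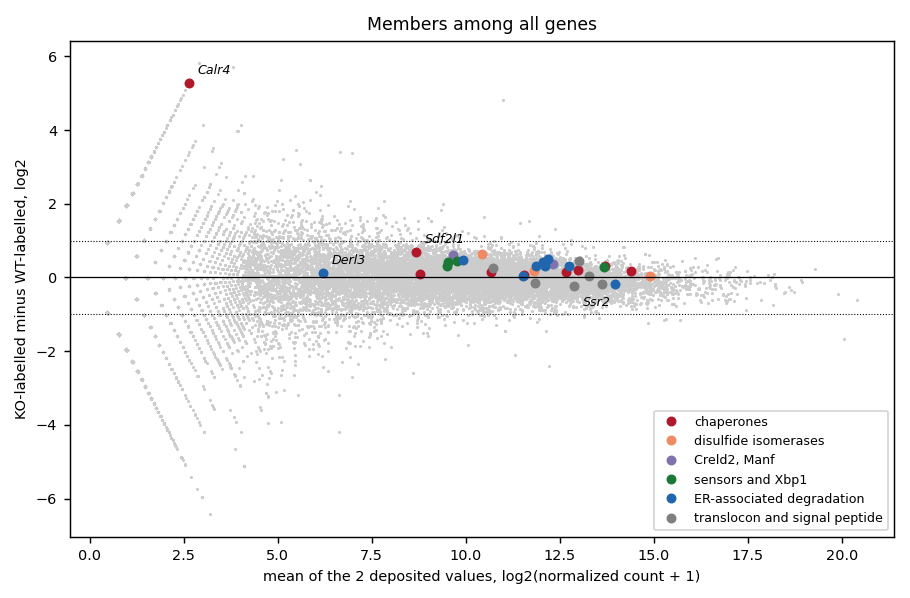
Log2 difference (library labelled KO minus library labelled WT) against the mean of the values in both libraries, log2(normalized count + 1), for all genes above 0 in at least 1 library (grey) and the 33 members coloured by role. Dotted lines mark 2-fold. Only Calr4, at low level, lies past them among the members.

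Of 115 other genes of the secretory pathway, taken from 6 lists, 101 were at 8 or more in both libraries, and 60 of these were higher and 40 lower, with a median log2 difference of 0.11. Past 1.5-fold, 7 were higher and 0 lower, beside 3.95% and 6.29% of all genes at that level. The translocation and signal peptidase list had 13 of 15 higher (median 0.22), ER to Golgi transport 12 of 18 (0.22), folding enzymes 14 of 20 (0.20) and degradation genes 12 of 20 (0.12). N-glycosylation had 4 of 15 higher (-0.04) and the other stress regulators 5 of 13 (-0.04). With the GC trend removed the medians were 0.08, 0.19, 0.13, 0.08, -0.09 and -0.00. As deposited, no list had a median as high as that of the members. With the GC trend removed, the median of the 31 well measured members was 0.18, below the 0.19 of ER to Golgi transport.

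The 7 genes past 1.5-fold came from all 6 lists. Edem3, a mannosidase of the same family as Edem1, was at 8.41 and 9.19 (0.79), and Hspa13, an HSP70-like protein of the ER, was at 8.24 and 8.99 (0.75). Ppib, which encodes the ER prolyl isomerase cyclophilin B, was at 11.42 and 12.10 (0.68). Ostc, a subunit of the oligosaccharyltransferase, was at 11.50 and 12.21 (0.70), and Spcs1, a subunit of signal peptidase, was at 12.12 and 12.82 (0.70). Tmed2, a cargo receptor of transport vesicles, was at 11.98 and 12.58 (0.60), and Eif2s1, which encodes the eIF2α that PERK phosphorylates, was at 10.60 and 11.27 (0.67). Of these only Ppib (0.67) and Edem3 (0.59) stayed past 1.5-fold with the GC trend removed. Among genes below 8 in both libraries, named after their values were seen, Fkbp11, Uggt2 and Svip were also at least 1.5-fold higher, and Pdia5 and Creb3l1 at least 1.5-fold lower. Pdia5 was at 7.79 and 6.02, a log2 difference of -1.77, while Pdia3, an abundant isomerase of the same list, was at 14.57 in both.

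**Figure D5:**
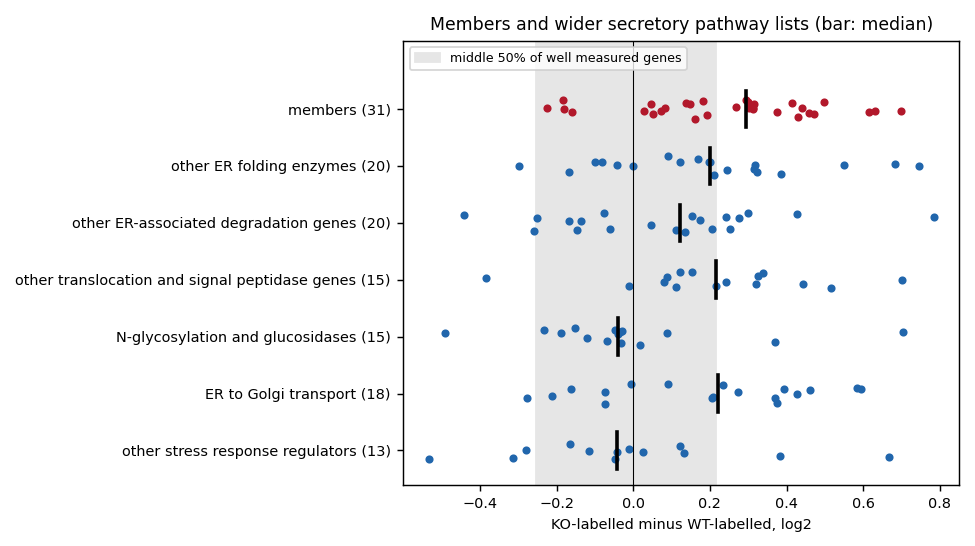
Log2 difference (library labelled KO minus library labelled WT) of each well measured gene of the set (31 members, red) and of 6 wider lists of the secretory pathway (blue, number of genes in brackets), with the median as a bar. The members' bar at 0.29 lies right of the grey band, which holds the middle 50% of all well measured genes, and the bars for N-glycosylation and the other stress regulators lie just below 0.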

How the data were processed

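RNA from 1 WT and 1 Chi3l1 KO Th1 sample was analysed. The authors selected mRNA on oligo-dT beads, sequenced paired 100-base reads, mapped them with TopHat and counted unique and multiple alignments for edgeR. Per the submitters' processing notes the build was mm10. The deposited values are log2 of a normalized count plus 1, a unit inferred from the values, and are not per length, although the study's methods name a length-scaled measure. The worth of 1 read, the median step of low values, was 0.967 in the library labelled WT and 0.965 in the library labelled KO, and all low values used lay within 0.2 reads of a whole number. Rebuilt reads are approximate, since the step varies slightly between genes.

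The difference is the value in KO minus that in WT. No test was made with 1 sample a group. Counting intervals (95%) are exact binomial, and for the Calr4 ratio a count of 0 was replaced by 3 reads. Well measured means at least 8 in both libraries. Lengths, GC content and positions come from GENCODE M21 (GRCm38, longest transcript), which held 98.3% of symbols, and promoters from RefSeq (GRCm38.p6). Promoter runs have 20 bases on each side of the element, or 5 where an annotated transcript is near. The members, lists and alternatives were chosen with earlier results of these data known. The promoter search and quartile counts were added after the values were seen. All members are named, and of each wider list up to 3 genes in each direction past 1.5-fold at 8 or more in at least 1 library. Scripts were tested on simulated data. The scripts ran in Python 3.11.15 on pandas 2.3.3, numpy 2.4.6 and scipy 1.17.1, with plots by matplotlib 3.10.9.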

Additional observations from a re-analysis of the deposited data

How the results depend on the processing

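No paired analysis was possible because there was 1 sample of each genotype, and for the same reason no sample could be left out. Under equal totals without Rn45s, scaling to Actb, quantiles set equal, median-ratio factors or a pseudocount of 0.1, all 33 members kept their direction. With the GC trend removed 6 changed sign, each of which differed by less than 2-fold. Sizes moved more than directions. Of the 35 genes with H13 and Vimp, the difference left its counting interval for 27 with equal totals and 25 when scaled to Actb. It did so for 23 with the GC trend removed and 14 with quantiles set equal. All 35 stayed inside under median-ratio factors or a pseudocount of 0.1. The median of the members was 0.294 as deposited, 0.410 when scaled to Actb and 0.435 with equal totals, and in these 2 settings the median of all well measured genes moved along, to 0.10 and 0.13. The gap between both medians was 0.305 under median-ratio factors and 0.184 with the GC trend removed. At least 2-fold higher there was 1 member, with 4 at 1.5-fold and 0 under the floor of 8 in both libraries, which leaves out Calr4 by its level. Among the wider pathway genes, 10 were at least 1.5-fold higher and 2 lower as deposited. With equal totals 16 were higher, with the GC trend removed 6 were higher and 1 lower, and at 2-fold 3 were higher and 1 lower. At 2-fold, 1147 of all genes were higher and 1418 lower. A line at 1.5-fold was passed by 2345 upward and 2795 downward and one at 3-fold by 573 and 733, and the floor of 8 left 41 and 66 at 2-fold. Beyond the thresholds and floors, the cause was not tested. Few reads limit Calr4, Derl3 and Vimp. The counting intervals of Derl3, Vimp, Dnajb9 and Edem2 hold 0, and the missing replicates limit every difference.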
